A study of Mus musculus with 2 samples.

Results

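The genes described here are 10 core and output genes of the circadian clock, namely Per1, Per2, Per3, Cry1, Cry2, Arntl, Clock, Nr1d1, Nr1d2 and Dbp. They were listed by symbol as known clock genes, and each symbol matched 1 gene among the 55536 mouse genes of the tables. Total RNA had been sequenced from tissue labelled as hippocampal layer, from female 5xFAD/CAST mice at 8 to 10 months of age, as 2 libraries of 1 group. No control group was analysed here, so the data give levels, transcript shares and the spread between the libraries, and no comparison between conditions. 5xFAD mice model amyloid deposition with mutant human transgenes under the Thy1 promoter, which is active mainly in neurons, and CAST is a wild-derived inbred strain. Both libraries share this genotype, sex and age range. The labels number the libraries as biological replicates 1 and 2 but give both the same donor record, which leaves it unclear if 2 animals were sampled. Every SD below is over n = 2 libraries and may be technical in part. The sources used here do not give the time of day at which tissue was taken, on which the level of most of these RNAs depends.

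The mammalian clock is a transcriptional feedback loop that runs in nearly every cell, with a master clock in the suprachiasmatic nucleus of the hypothalamus and local clocks elsewhere, the hippocampus included. CLOCK and BMAL1, the product of Arntl, bind E-boxes as a pair and switch on the Per and Cry genes, whose proteins return to the nucleus and repress that pair. The same pair drives Nr1d1 and Nr1d2, which encode the REV-ERB nuclear receptors that repress Arntl, and Dbp, whose protein carries the rhythm to output genes through D-box sites. In rodent tissues Arntl RNA peaks at a phase roughly opposite to that of Dbp, Nr1d1 and the Per genes.

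Replicates 2 and 1 held 32169915 and 27682992 expected counts on mouse genes, of which 20353.5 and 17237.1 lay on the 10 clock genes. All 10 markers of hippocampal neurons were detected in both libraries, at a TPM (a length-scaled share of all transcripts) of 1 or more, with summed levels of 542.9 TPM in replicate 2 and 497.4 TPM in replicate 1. Of 7 markers of the suprachiasmatic nucleus 3 reached 1 TPM in both, with summed levels of 26.92 and 20.01 TPM in replicates 2 and 1. Grp had 16.3 TPM in replicate 2 and 11.1 TPM in replicate 1, Vip had 7.80 and 6.82 TPM and Prokr2 1.45 and 1.06 TPM. Grp and Vip made up most of that sum, and which cells their RNA came from was not tested. The markers Nms and Six6 had 0 expected counts in both libraries, and a count of 0 sets a limit of 3 counts, for counting error only, which is 0.0933 CPM in replicate 2 and 0.108 CPM in replicate 1 (counts rescaled by library size). All 10 choroid plexus markers were lower in replicate 2, 9 of them past 1.5-fold, and their summed level was 159.4 TPM in replicate 2 against 456.1 TPM in replicate 1.

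Every clock gene was detected in both libraries, and their levels covered almost an order of magnitude. Dbp was the highest at 51.5 ± 1.57 TPM and Cry1 the lowest at 5.90 ± 0.332 TPM. Among 22015 nuclear protein-coding genes these held ranks 1947 and 10167. The median of the 10 genes was 26.0 TPM in replicate 2 and 26.1 TPM in replicate 1. Over the 13251 protein-coding genes detected in both libraries the median was 15.3 TPM in replicate 2 and 15.2 TPM in replicate 1. In the gene table the genes were, in descending order, Dbp, Per1, Cry2, Nr1d1, Nr1d2, Clock, Arntl, Per3, Per2 and Cry1. By the values of the libraries alone, only Per1 and Cry2 overlapped as neighbours in this order. For every other neighbouring pair the means differed by more than the combined SD of the pair. The deposited TPM intervals, whose level is not stated, resolved fewer pairs. They also overlapped in both libraries for Dbp and Per1, Cry2 and Nr1d1, Per3 and Per2, and Per2 and Cry1. For Dbp and Per1 in replicate 2 they were 48.5 to 54.2 and 42.1 to 49.7 TPM. Those of Arntl and Per3 overlapped in replicate 1. In the kallisto layout, the other estimate made from the same reads, the order was different. There Cry2, with 39.7 and 39.1 TPM in replicates 2 and 1, overlapped Nr1d1, with 40.1 and 37.8 TPM, and both exceeded Per1. In bulk tissue a lower level can mean fewer expressing cells or less RNA per cell, and these cannot be told apart.

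**Figure D1:**
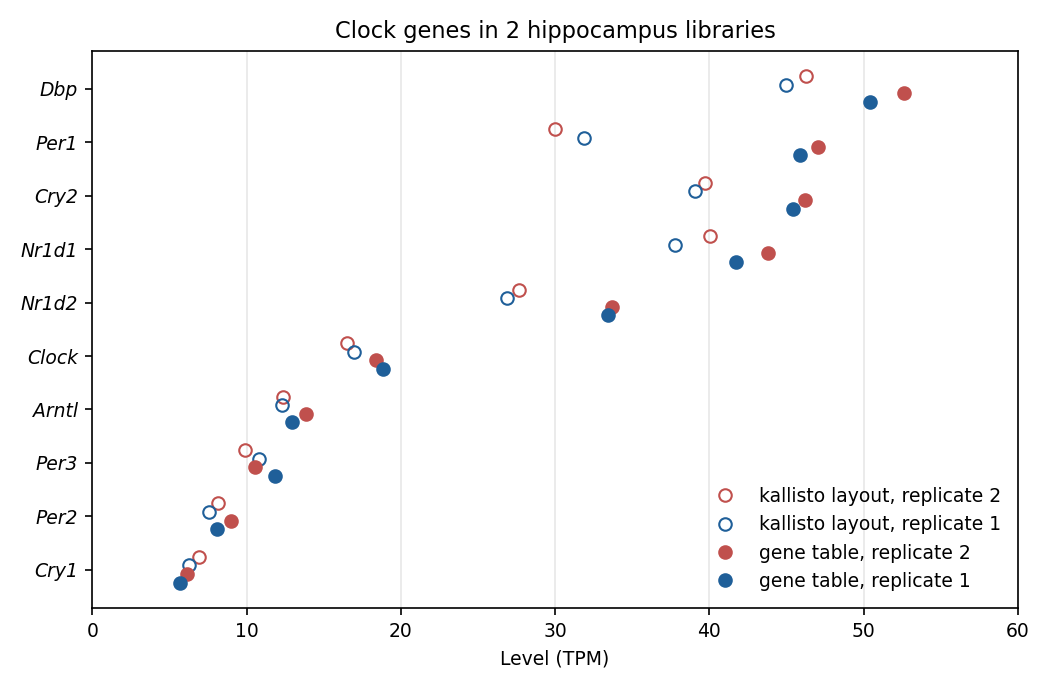
Levels of the 10 clock genes in TPM, 1 row per gene, with open circles for the kallisto-layout table and filled circles for the gene table, and colours for replicates 2 and 1. The libraries lie close together for every gene, and the largest gap between the tables is that of Per1, at 29.98 and 31.87 TPM in the kallisto layout against 47.0 and 45.9 TPM in the gene table.

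Of the activating pair, Clock (ENSMUSG00000029238.11, chr5:76209868-76304792, minus strand, mm10) had 18.4 TPM in replicate 2 and 18.8 TPM in replicate 1, from 3000 and 2621 expected counts. Arntl (ENSMUSG00000055116.8, chr7:113207465-113314126, plus strand) had 13.9 TPM in replicate 2 and 12.9 TPM in replicate 1, from 838 and 684 counts. Clock RNA was thus the more abundant of the pair in both libraries, by 1.39 ± 0.0937-fold. Both genes split into several coding transcripts, and the tables hold 2 estimates of that split. One comes from the layout of kallisto and one from that of RSEM, which also underlies the gene table. Arntl-206 carries a coding exon of 21 bases, at chr7:113281402-113281422, that Arntl-201 skips, so its coding sequence is 1899 bases against 1878. Clock-205 and Clock-201 hold a codon of 3 bases at an exon junction that Clock-204 lacks, which gives coding sequences of 2565 and 2562 bases. The coding sequences differ in length by these stretches, which are shown for that reason. The transcripts differ in more than them, so their shares are not a measure of the exon or the codon alone. Arntl-206 starts 27158 bases downstream of Arntl-201, and Clock-204 starts 30780 bases downstream of Clock-205 and has 21 exons against 23. Clock-205 and Clock-201 have coding sequences of the same length. Capitals mark the extra bases, and the sequences come from GENCODE M21 transcripts. Arntl-201 joins exons across chr7:113280802-113283257, and Clock-205 and Clock-204 join them across chr5:76229563-76230165 and chr5:76229560-76230165 on the minus strand, exon ends included.
Arntl-206: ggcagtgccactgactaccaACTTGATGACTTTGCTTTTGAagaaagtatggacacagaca
Arntl-201: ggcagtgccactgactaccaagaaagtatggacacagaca
Clock-205: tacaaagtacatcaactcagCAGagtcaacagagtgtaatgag
Clock-204: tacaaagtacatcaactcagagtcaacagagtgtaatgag

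The form of Arntl without the extra exon led in every estimate. In the kallisto layout Arntl-206 took 31.9% of Arntl TPM in replicate 2 and 21.8% in replicate 1, against 24.2% and 11.6% in the RSEM layout. Its share was thus higher in replicate 2 by both estimates, from 259.4 and 154.2 estimated counts in the kallisto layout and 178.0 and 69.5 expected counts in the RSEM layout. The deposited TPM intervals, whose level is not stated, were for Arntl-206 in the RSEM layout 2.03 to 4.62 in replicate 2 and 0.542 to 2.80 in replicate 1, and overlapped. The long transcripts of Clock were divided less evenly between the tables. Clock-205, with the longer untranslated sequence, took 35.0% and 37.5% of Clock TPM in replicates 2 and 1 in the kallisto layout, against 48.6% and 50.8% in the RSEM layout. Clock-201 took 34.9% and 28.8% in the kallisto layout, against 21.6% and 14.8% in the RSEM layout. The form without the codon, Clock-204, was steadier at 14.2% and 14.4% in the kallisto layout, against 10.8% and 10.7% in the RSEM layout. As a share of the coding Clock transcripts it came to 17.3 ± 0.685% in the kallisto layout and 13.7 ± 0.490% in the RSEM layout.

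The Period genes encode the repressors that set the timing of the loop, and Per1 dominated them. Per1 (ENSMUSG00000020893.17, chr11:69095217-69109960, plus strand) had 47.0 TPM in replicate 2 and 45.9 TPM in replicate 1. Per3 (ENSMUSG00000028957.12, chr4:151003652-151044665, minus strand) had 10.6 and 11.9 TPM in replicates 2 and 1, and Per2 (ENSMUSG00000055866.9, chr1:91415982-91459324, minus strand) had 8.97 and 8.05 TPM. Per1 was 3.95 ± 0.393 times as abundant as Per2 in the kallisto layout, against 5.47 ± 0.325 times in the gene table. It was 2.99 ± 0.0557 times as abundant as Per3 in the kallisto layout, against 4.16 ± 0.415 times in the gene table. The order of the 3 genes was the same in both tables, whereas the margin of Per1 was not. Per3 exceeded Per2 by 1.18-fold in replicate 2 and 1.47-fold in replicate 1 of the gene table.

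The margin of Per1 turned on 1 short transcript. Per1-204 is an annotated fragment of 496 bases and 3 exons, which starts 4935 bases downstream of the 5′ end of the gene. In the kallisto layout it had 0% of Per1 TPM in replicate 2 and 5.84% in replicate 1, against 31.4% and 32.5% in the RSEM layout. The reads behind this share were few. It held 0 and 12.7 estimated counts in the kallisto layout, and 130.9 and 116.2 of the 3230 and 2702 expected counts of Per1 in the RSEM layout. Without it, Per1 had 29.98 and 30.01 TPM in the kallisto layout, against 32.3 and 31.0 TPM in the RSEM layout. In the order of the 10 genes this places Per1 below Nr1d1 in either table. It also falls below Nr1d2 in the gene table, where Nr1d2 had 33.7 and 33.4 TPM. In the kallisto layout Per1 was below Nr1d1 with Per1-204 too. It stays above Nr1d2 there, at 27.7 and 26.9 TPM.

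Per1 has more than one promoter, and its transcripts differ in where they start. Per1-201, the leading full-length form, starts at the first of the windows shown here. Per1-204 and the full-length Per1-206 start at the second, and Per1-202, with a coding sequence of 2481 bases against 3873 for Per1-201, starts further upstream. Both windows run from 250 bases before to 50 after a start in RefSeq on GRCm38.p6, plus strand, the first at chr11:69098699-69098998 and the second at chr11:69099902-69100201. Capitals mark the E-box CACGTG, which lies 166 bases before the first start. The second window holds no E-box.
Per1 first window: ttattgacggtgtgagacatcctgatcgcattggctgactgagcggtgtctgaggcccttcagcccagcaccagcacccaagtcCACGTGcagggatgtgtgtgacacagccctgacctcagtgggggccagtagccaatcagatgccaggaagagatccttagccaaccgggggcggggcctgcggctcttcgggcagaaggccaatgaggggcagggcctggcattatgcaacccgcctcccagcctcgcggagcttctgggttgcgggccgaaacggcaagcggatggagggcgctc
Per1 second window: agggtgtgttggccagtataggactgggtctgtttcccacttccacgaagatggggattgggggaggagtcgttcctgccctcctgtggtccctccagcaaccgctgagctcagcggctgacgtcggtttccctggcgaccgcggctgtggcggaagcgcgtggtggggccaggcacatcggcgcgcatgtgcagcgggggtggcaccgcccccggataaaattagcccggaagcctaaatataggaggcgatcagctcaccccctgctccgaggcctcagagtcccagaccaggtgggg

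Transcripts from the first window led in both tables. Per1-201 took 74.0% and 67.1% of Per1 TPM in replicates 2 and 1 in the kallisto layout, against 52.0% and 49.2% in the RSEM layout. Transcripts from the second window together took 0.0280% and 6.70% in the kallisto layout, against 31.6% and 32.5% in the RSEM layout, nearly all of it Per1-204. The deposited intervals of the RSEM layout bear on this split in different ways. For Per1-204 the interval ran from 10.7 to 18.3 TPM in replicate 2 and from 10.5 to 18.9 TPM in replicate 1, clear of 0. The TPM of Per1-201, 24.5 in replicate 2 and 22.6 in replicate 1, lay above the upper bound of its own deposited interval, at 23.3 and 22.3. For Per1-206, which the RSEM layout put at 0.100 and 0 TPM, the interval reached 12.7 and 8.45 TPM. The share of the second start thus differed between the tables, and which estimate is closer was not tested. Per1-202 was similar in both, at 18.7% and 16.0% in the kallisto layout against 15.2% and 17.4% in the RSEM layout.

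**Figure D2:**
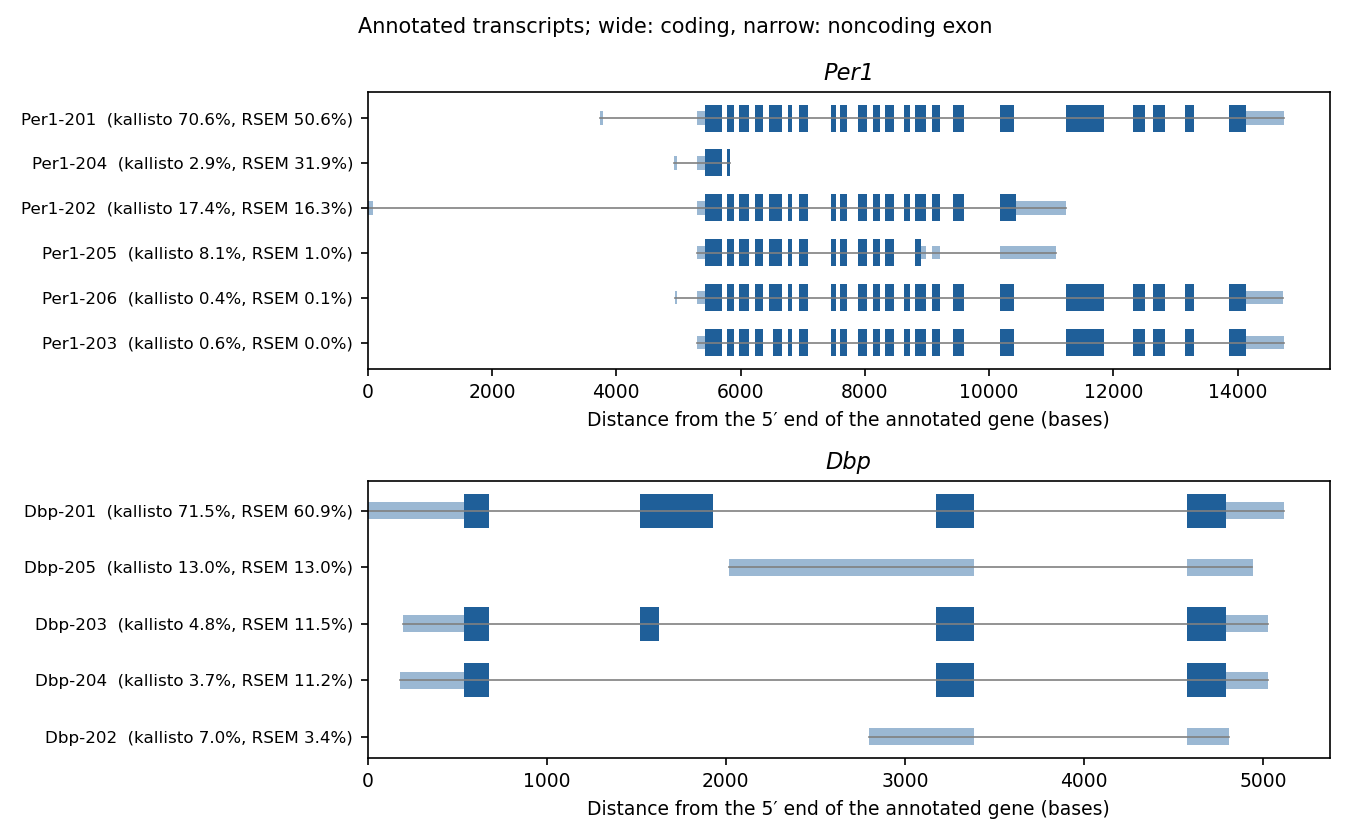
Annotated transcripts of Per1 and Dbp, drawn by distance in bases from the 5′ end of the gene, with wide boxes for coding and narrow boxes for noncoding exon sequence, and mean shares of the gene's TPM over both libraries. Per1-204 ends after its 3 short exons, which start 4935 bases into the gene, and holds 2.9% of Per1 TPM in the kallisto layout against 31.9% in the RSEM layout.

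Per2 was carried by a single transcript, Per2-201, with 100% of its TPM in both libraries and both tables. Per3 was the most divided gene of the 10 by coding potential. Its coding transcript Per3-201 held 67.5% and 65.5% of Per3 TPM in replicates 2 and 1 in the kallisto layout, against 63.7% and 55.5% in the RSEM layout. Retained-intron transcripts made up most of the rest. Per3-205 took 14.0% and 15.2% in the kallisto layout, against 14.4% and 14.1% in the RSEM layout. Per3-202 took 12.6% and 9.97% in the kallisto layout, against 15.1% and 14.5% in the RSEM layout. The noncoding Per3-204 differed between the tables, at 0% and 0.647% in the kallisto layout against 3.69% and 10.0% in the RSEM layout. The libraries were made from total RNA, in which incompletely spliced RNA is also counted.

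Of the cryptochromes, which bind the Period proteins and repress the activating pair, Cry2 far exceeded Cry1. Cry2 (ENSMUSG00000068742.11, chr2:92403646-92434043, minus strand) had 46.2 TPM in replicate 2 and 45.4 TPM in replicate 1, from 3584 and 3061 expected counts. Cry1 (ENSMUSG00000020038.10, chr10:85131700-85185064, minus strand) had 6.13 and 5.66 TPM in replicates 2 and 1, from 382 and 309 counts, the fewest of the 10 genes. The ratio of Cry2 to Cry1 was 5.97 ± 0.357 in the kallisto layout, against 7.78 ± 0.349 in the gene table, and no other pair within a family of these genes was so unequal. Cry2-201 led with 82.1% and 79.6% of Cry2 TPM in the kallisto layout, against 80.0% and 77.3% in the RSEM layout. Cry2-202, with 11.1% and 12.0% against 10.9% and 13.3%, has the same coding length of 1776 bases. Cry1-201 led with 70.6% and 77.3% of Cry1 TPM in the kallisto layout, against 94.1% and 94.2% in the RSEM layout. The gap is largely Cry1-202, a retained-intron transcript of 406 bases that had 9.03 and 3.94 estimated counts in the kallisto layout and 0 in the RSEM layout. These few counts made up 1.77 and 0.867 of the 6.94 and 6.28 TPM of Cry1 in the kallisto layout. They thus lower the ratio of Cry2 to Cry1 in that layout. Cry2 shares 295 exon bases with D930015M05Rik on the opposite strand, which had 0.04 and 0.05 TPM.

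The summed levels of the Period genes and of the cryptochromes were each above that of Clock and Arntl in both tables. The sum for Clock and Arntl is not that of all activators. It leaves out genes such as Npas2, listed here with the positive and auxiliary loop factors. Npas2 had 15.1 and 15.2 TPM in replicates 2 and 1 of the gene table, and 14.6 and 16.9 TPM in the kallisto layout. Arntl2, also left out, had 3.92 and 2.51 TPM in the gene table, and 6.82 and 9.38 TPM in the kallisto layout. With both added, the Clock and Arntl sum stays below the Period and cryptochrome sums in the gene table. In the kallisto layout it rises above them in both libraries, so the order there depends on which genes are counted. Per1, Per2 and Per3 together had 66.2 ± 0.516 TPM in the gene table and Cry1 and Cry2 together had 51.7 ± 0.863 TPM, against 32.0 ± 0.354 TPM for Clock and Arntl. In the gene table the order of the Period and cryptochrome sums rested on Per1-204. Without it, a setting added after the data were seen, the Period sum was 51.8 TPM in replicate 2 and 50.9 TPM in replicate 1, which overlaps 52.3 and 51.1 TPM for the cryptochromes. In the kallisto layout the Period sum was 49.1 ± 1.54 TPM and the cryptochrome sum 46.0 ± 0.903 TPM, against 29.0 ± 0.268 TPM for Clock and Arntl. There the Period sum without Per1-204 was 48.05 and 48.36 TPM in replicates 2 and 1. It stayed above the cryptochrome sum of 46.65 and 45.38 TPM. Nr1d1 and Nr1d2 together had the most in either table, 66.2 ± 2.15 TPM in the kallisto layout against 76.3 ± 1.66 TPM in the gene table.

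The REV-ERB genes were close to each other. Nr1d1 (ENSMUSG00000020889.11, chr11:98767932-98775333, minus strand) had 43.8 TPM in replicate 2 and 41.7 TPM in replicate 1, and Nr1d2 (ENSMUSG00000021775.11, chr14:18204054-18239127, minus strand) had 33.7 and 33.4 TPM. Nr1d1 was higher by 1.43 ± 0.0310-fold in the kallisto layout, against 1.27 ± 0.0359-fold in the gene table. Nr1d1-201 held 92.0% and 94.3% of Nr1d1 TPM in the kallisto layout, against 94.7% and 94.4% in the RSEM layout. Nr1d2 was more divided. Its coding transcript Nr1d2-201 held 72.7% and 69.9% in the kallisto layout, against 69.9% and 65.0% in the RSEM layout. The retained-intron form Nr1d2-202 followed with 15.7% and 18.1% against 19.2% and 23.6%, and Nr1d2-203 with 11.6% and 10.2% against 10.8% and 10.9%. The 3′ end of Nr1d1 overlaps Thra, a thyroid hormone receptor gene on the opposite strand, over 263 exon bases or 8.55% of the exon bases of Nr1d1. Thra had 404.1 TPM in replicate 2 and 344.2 TPM in replicate 1. The protocol names a directional library kit, but whether counting used the strand is not given in the sources used here, so the levels of Nr1d1 and Dbp, which also overlaps such a gene, are uncertain to that extent.

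Dbp (ENSMUSG00000059824.12, chr7:45705088-45710203, plus strand), the output gene, had 52.6 TPM in replicate 2 and 50.4 TPM in replicate 1, from 1822 and 1529 expected counts. It was 3.85 ± 0.0759 times as abundant as Arntl, and Nr1d1 was 3.20 ± 0.0516 times as abundant as Arntl. Both ratios varied by a few percent between the libraries. Dbp overlaps Sphk2, a sphingosine kinase gene on the opposite strand, over 539 exon bases or 18.0% of its own. Sphk2 had 14.1 TPM in replicate 2 and 12.7 TPM in replicate 1, below Dbp.

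The minor coding transcripts of Dbp had different shares in the libraries. Dbp-203 uses only the start of the second exon and Dbp-204 skips that exon, with coding sequences of 675 and 564 bases against 975 for Dbp-201. All 3 enter the same next exon, and only the bases before the junction differ. Capitals mark the shared bases after the junction, and the sequences come from GENCODE M21 transcripts. Dbp-201 joins exons across chr7:45707016-45708260, Dbp-203 across chr7:45706716-45708260 and Dbp-204 across chr7:45705762-45708260, plus strand, exon ends included.
Dbp-201: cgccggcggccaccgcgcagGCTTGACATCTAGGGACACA
Dbp-203: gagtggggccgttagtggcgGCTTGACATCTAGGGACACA
Dbp-204: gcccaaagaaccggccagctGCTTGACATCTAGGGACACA

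Dbp-203 took 9.50% of Dbp TPM in replicate 2 and 0% in replicate 1 in the kallisto layout, against 22.9% and 0% in the RSEM layout. Dbp-204 took 1.69% and 5.76% in the kallisto layout, against 4.30% and 18.2% in the RSEM layout. The replicate with more of one had less of the other by these estimates, in both tables. Their sum was 11.2% and 5.76% in the kallisto layout, against 27.2% and 18.2% in the RSEM layout. The deposited interval of Dbp-203 in replicate 1 reached 4.68 TPM although its TPM was 0, and that of Dbp-203 in replicate 2 began at 5.47 TPM. The intervals of Dbp-204, 0.560 to 7.33 TPM in replicate 2 and 4.22 to 11.2 TPM in replicate 1, overlapped. Dbp-201 led everywhere, with 69.2% and 73.8% in the kallisto layout against 58.1% and 63.7% in the RSEM layout. The retained-intron form Dbp-205 was the steadiest, at 12.9% and 13.1% against 13.3% and 12.7%.

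**Figure D3:**
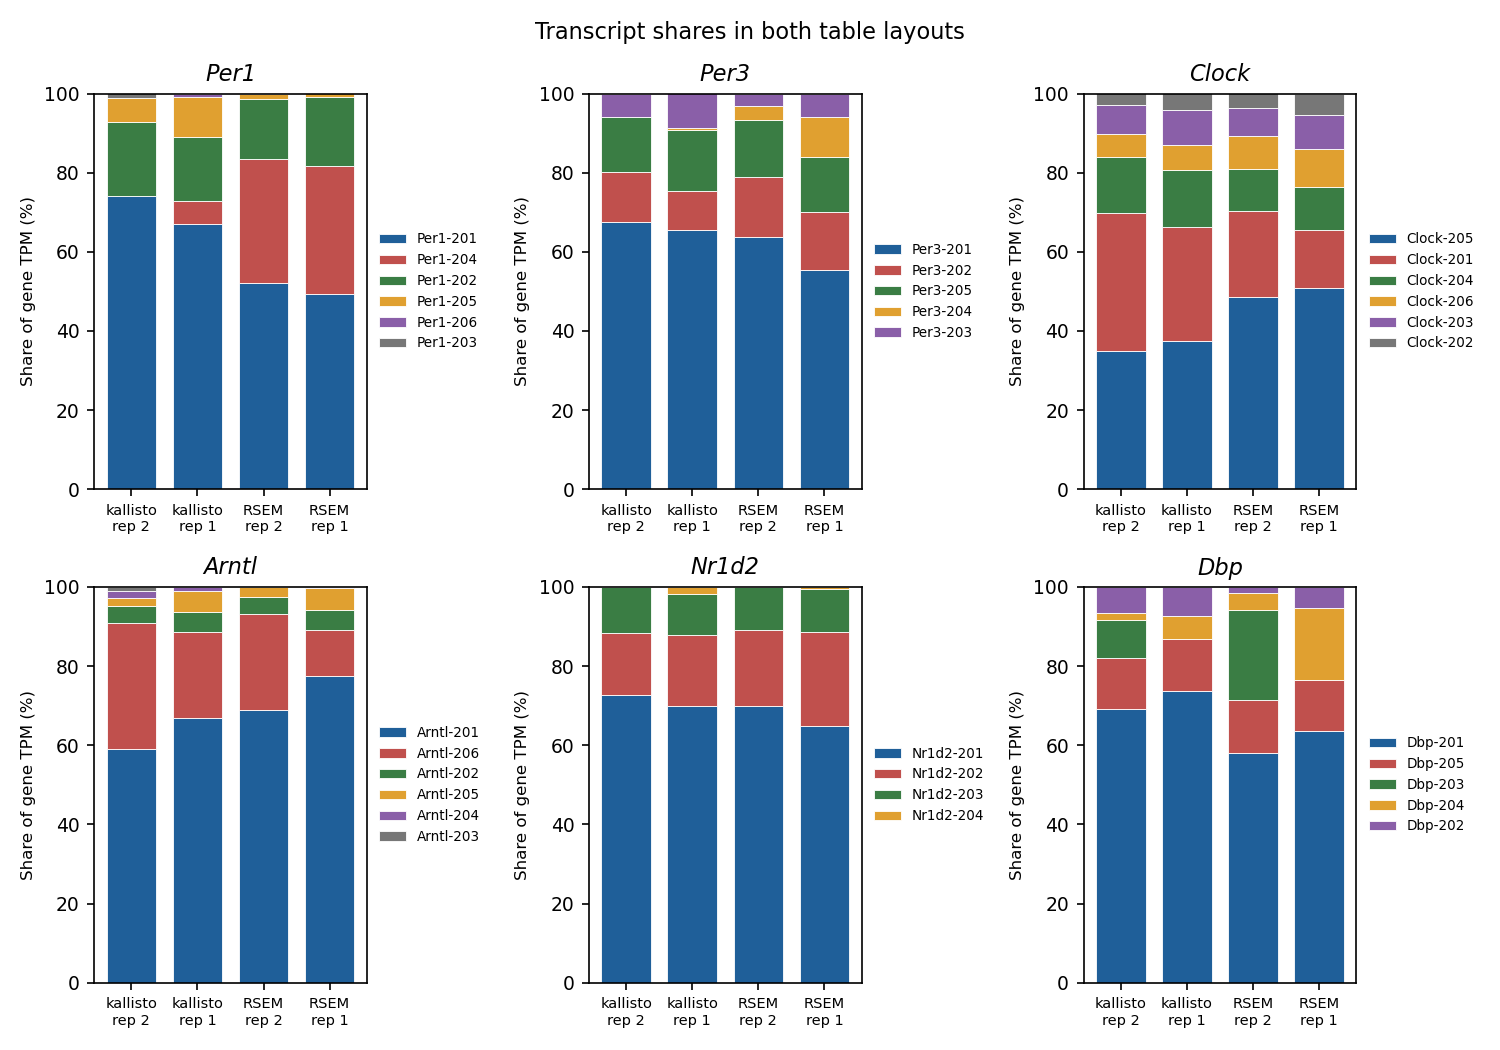
Share of the gene's TPM, in percent, on each annotated transcript of 6 clock genes, with 1 stacked bar per library and table layout. The leading transcript is the lowest block of every bar, and the largest shift between layouts is the block of Per1-204, 0% and 5.84% in the kallisto layout against 31.4% and 32.5% in the RSEM layout.

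The leading transcript was the same for all 10 genes whichever table or library was used. Between the layouts it differed in 0 of the 10 genes, against 18.9% of the 12753 genes with several transcripts and a mean level of at least 1 TPM. Between the libraries within the RSEM layout it differed in 0 of the 10, against 14.1% of 12758 such genes. The lead was narrowest for Clock in replicate 2 of the kallisto layout, with 35.0% on Clock-205 against 34.9% on Clock-201. At the level of the whole gene the tables were close in counts. Once centred on the median over well-expressed protein-coding genes, the log2 ratio of kallisto-layout to gene-table counts lay between -0.101, for Nr1d2 in replicate 1, and 0.145, for Per3 in replicate 2. None of the 10 was past 1.5-fold in both libraries, against 7.01% of 18863 genes. For Per1 the centred log2 count ratio was 0.010 in replicate 2 and 0.038 in replicate 1, whereas its TPM in the kallisto layout was 0.638 and 0.694 times that of the gene table. The tables thus put a similar number of reads on Per1, and its TPM without Per1-204 in replicates 2 and 1 was 29.98 and 30.01 in the kallisto layout and 32.3 and 31.0 in the RSEM layout.

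Between the libraries the clock genes moved little. The log2 ratio of replicate 2 over replicate 1, from scaled counts, lay between -0.121 for Per3 and 0.153 for Per2, with a median of 0.068. None of the 10 was past 1.5-fold, against 8.4% of the 18897 genes that averaged 10 counts or more and 1.09% of the 13095 that averaged 100 or more, as every clock gene did. The median size of the log2 ratio was 0.073 for the clock genes, 0.122 for all these genes, and 0.078 for genes whose counts lay between those of the lowest and highest clock gene. Their spread was thus close to that of other genes counted as deeply. The ratio was above 0 for 9 clock genes and below 0 for Per3, and it was above 0 for 9987 of the 18897 genes. The exact 95% counting interval of the ratio excluded 0 for 2 of the 10, against 26.5% of all genes tested, a share near the background. For Per2, with 1152 counts in replicate 2 and 907 in replicate 1, the log2 ratio was 0.153 with an interval from 0.026 to 0.280. For Per3, with 1187 and 1130 counts, it was -0.121 with an interval from -0.240 to -0.002. Both calls were lost at 99% confidence. With ERCC spike-ins as the scale 7 of the 10 intervals excluded 0, all with ratios above 0, against 33.0% of all genes tested. Per3, with a log2 ratio of -0.062 on that scale, was not among the 7. The intervals cover counting error only.

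**Figure D4:**
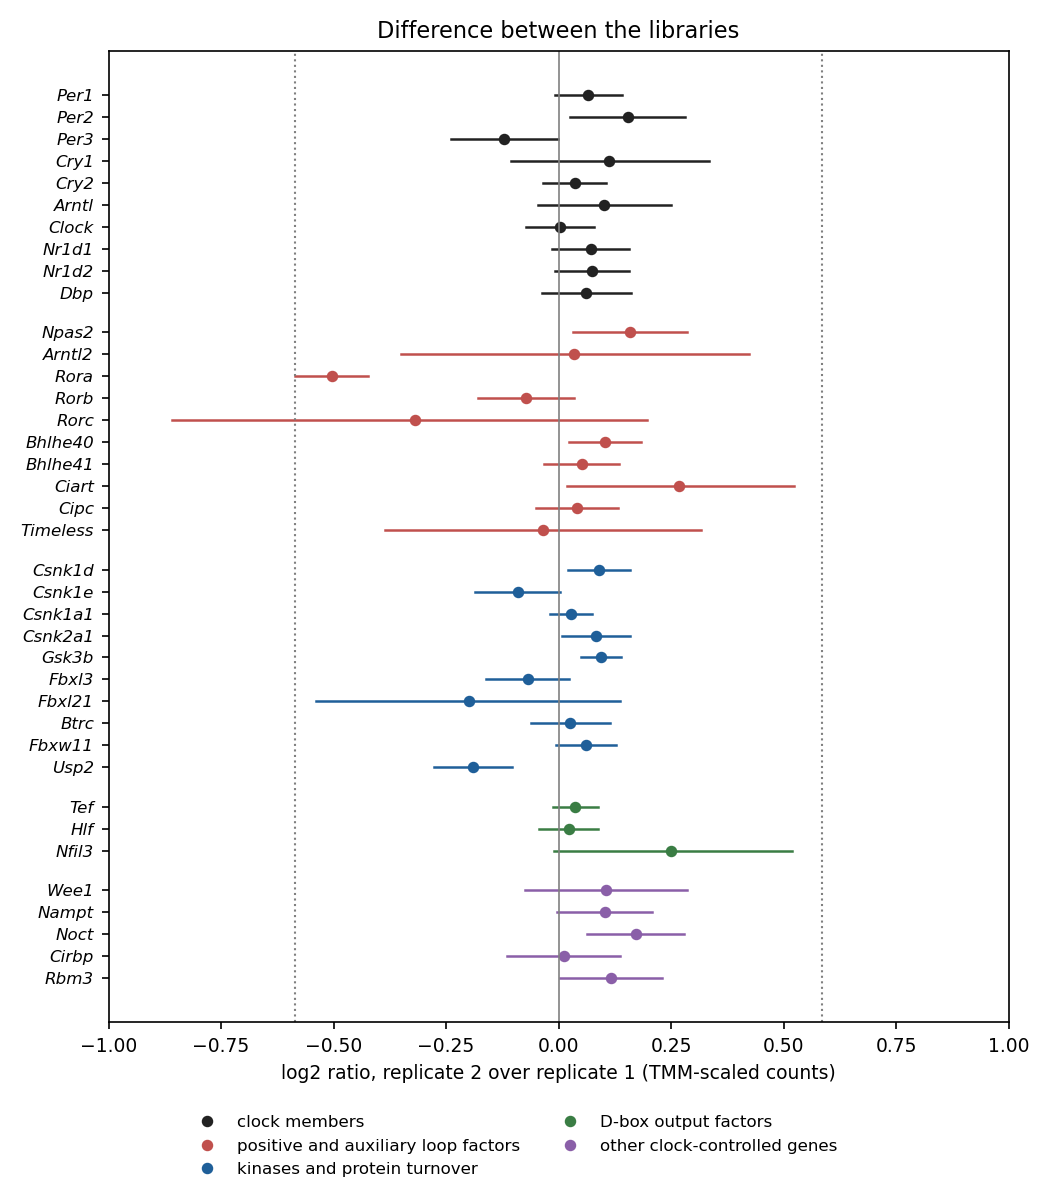
Log2 ratio of replicate 2 over replicate 1 for the 10 clock genes and 28 other genes of the clock pathway, with exact 95% counting intervals as lines and dotted lines at 1.5-fold. Every clock gene lies between -0.121 and 0.153, and Rora lies lowest at -0.504.

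Cell type markers also differed between the libraries. The median log2 ratio was 0.132 over the 10 hippocampal neuron markers, all above 0, and 0.129 over 4 markers of neurons in general, all above 0. It was -0.095 over 4 astrocyte markers and -0.302 over 4 oligodendrocyte markers, all below 0, and -0.001 over 4 endothelial markers. Summed levels in replicates 2 and 1 were 1864.1 and 1721.5 TPM for neurons, 1477.7 and 1512.4 TPM for astrocytes, 1383.9 and 1725.2 TPM for oligodendrocytes, and 53.7 and 55.6 TPM for endothelium. Over the choroid plexus markers the median was -1.372, with Ttr at 146.3 TPM in replicate 2 against 426.2 TPM in replicate 1. The part of these differences in the ratios of the clock genes was not tested.

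In the wider pathway, 28 other genes in 4 lists were all detected in both libraries, and none was past 1.5-fold between them in scaled counts, against 8.4% of all genes tested. In TPM a pair of them was further apart in 1 of the tables. Arntl2, a relative of Arntl named after its values were seen, had 3.92 TPM in replicate 2 against 2.51 TPM in replicate 1 in the gene table but 6.82 against 9.38 TPM in the kallisto layout, and Rora had 14.1 against 21.4 TPM in the kallisto layout. Among the 10 positive and auxiliary loop factors the highest were Bhlhe40 and Bhlhe41, which encode E-box repressors also called DEC proteins, Cipc, which encodes an inhibitor of CLOCK, and Rora, which encodes a receptor that activates Arntl at the sites REV-ERB represses. Bhlhe40 had 50.8 TPM in replicate 2 and 48.6 TPM in replicate 1, close to the level of Dbp. Cipc had 31.1 and 32.6 TPM and Bhlhe41 30.2 and 30.6 TPM in replicates 2 and 1. Rora stood apart with 15.4 TPM in replicate 2 against 22.1 TPM in replicate 1. Its log2 ratio of -0.504, with a counting interval from -0.586 to -0.423, was the largest in size of all 38 pathway genes. The ratio of Rora to Nr1d1, its opponent at the same sites, was 0.352 in replicate 2 and 0.530 in replicate 1. The list as a whole had a median log2 ratio of 0.037, with 6 genes above and 4 below 0.

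The 10 kinases and protein turnover factors, which set the stability of the PER and CRY proteins, had list medians of 48.5 TPM in replicate 2 and 46.2 TPM in replicate 1, against 26.0 and 26.1 TPM for the clock genes. Csnk1a1, a casein kinase gene, had 125.6 and 119.4 TPM in replicates 2 and 1. Gsk3b, also a kinase gene, had 62.3 and 61.9 TPM, Fbxw11, an F-box gene of the ligase that degrades PER, 58.0 and 56.9 TPM, and Csnk1e, another casein kinase gene, 53.5 and 52.7 TPM. The exception was Fbxl21, an F-box gene whose product acts on CRY, at 3.88 and 3.85 TPM. It also had the largest log2 ratio of the list, -0.199, with an interval from -0.540 to 0.136 at 148 and 149 counts. The list median was 0.026, with 6 genes above and 4 below 0.

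Dbp was the second most abundant of the D-box factors after Tef. Tef, its close relative, had 99.8 TPM in replicate 2 and 91.8 TPM in replicate 1, and was 2.38 ± 0.0485 times as abundant as Dbp in the kallisto layout, against 1.86 ± 0.0522 times in the gene table. Hlf, the other activator of the family, had 39.3 and 38.0 TPM, or 0.751 ± 0.00448 of Dbp. Nfil3, which encodes the repressor of the same sites, had 6.56 and 5.50 TPM, or 0.117 ± 0.0110 of Dbp. Activators of D-box sites were thus far more abundant than the repressor at the RNA level. All 3 had log2 ratios above 0, the largest 0.250 for Nfil3 with an interval from -0.011 to 0.518.

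The other clock-controlled genes were of the same order as the clock genes. Rbm3 and Cirbp, which encode cold-inducible RNA-binding proteins, had 56.2 and 51.2 TPM in replicate 2 and 52.5 and 50.6 TPM in replicate 1. Noct, a rhythmic gene also called nocturnin, had 23.2 and 20.3 TPM in replicates 2 and 1, and Nampt, which encodes the rate-limiting enzyme of NAD salvage, 17.4 and 16.6 TPM. All 5 had log2 ratios above 0, with a median of 0.105. The largest was 0.171 for Noct, with an interval from 0.063 to 0.279.

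**Figure D5:**
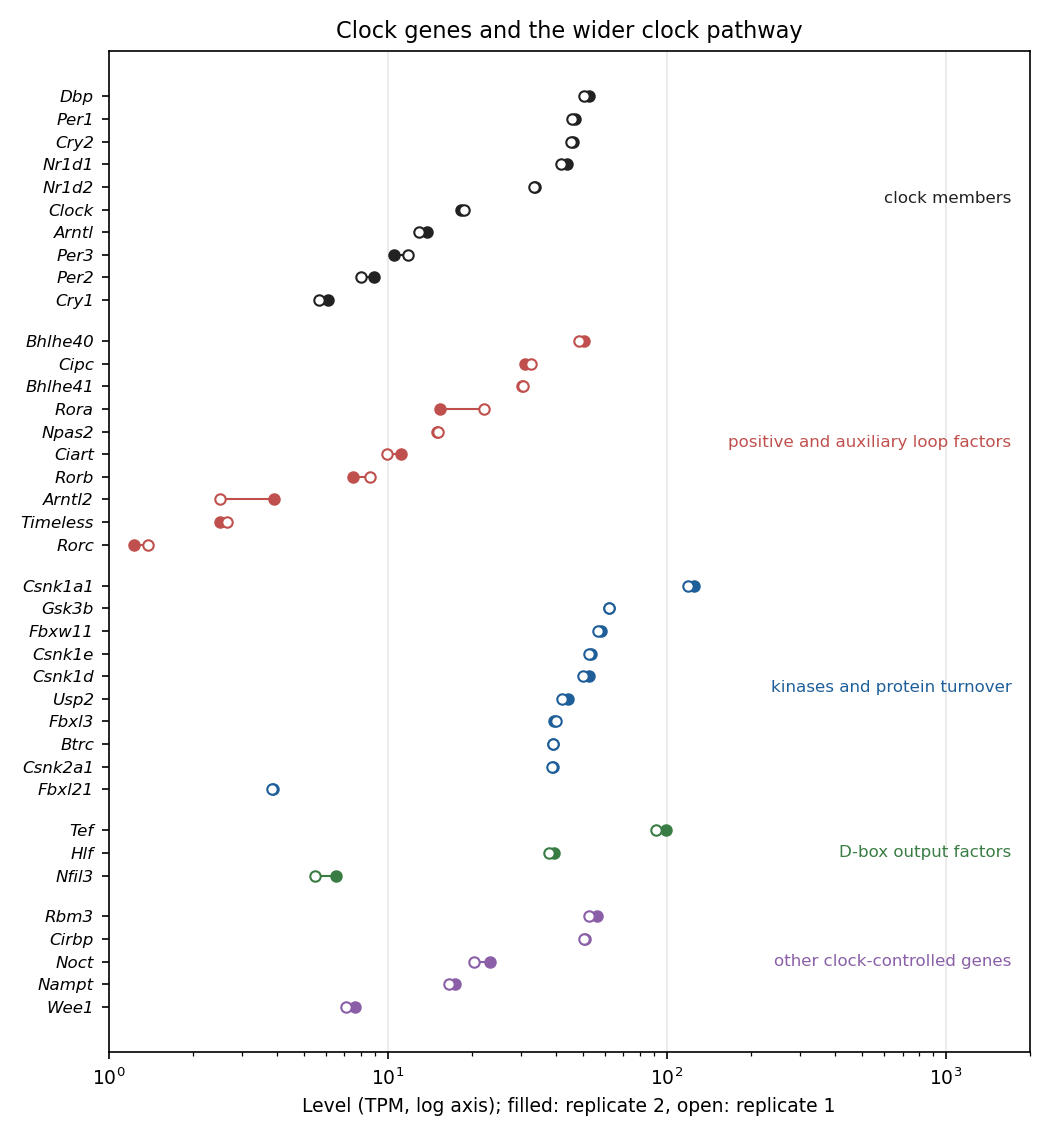
Levels in TPM on a log axis of the 10 clock genes and 28 genes in 4 lists of the wider pathway, with filled circles for replicate 2 and open circles for replicate 1. Csnk1a1, at 125.6 and 119.4 TPM, is the highest gene shown, and Rora, at 15.4 and 22.1 TPM, shows a gap between the libraries wider than that of any clock gene.

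Promoter windows of 300 bases were found in RefSeq for 9 of the 10 genes, all but Per2, and numbered 13 in all. They were searched on both strands for the E-box CACGTG, the E′-box CACGTT, the D-box TTATGTAA or TTACGTAA, the ROR element TAGGTCA or TGGGTCA, and the cAMP response element TGACGTCA. The E-box was found in the windows of Per1 and Cry1, against 7.15% of all 32851 windows. Cry1, Cry2 and Nr1d1 held an E′-box, against 4.68% of all windows. Per3 held a pair of D-boxes, 205 and 158 bases before its start, and 1.06% of all windows held at least 1. Arntl held a ROR element 30 bases after its second start, against 6.45% of all windows. No window of the 9 genes held the cAMP response element, found in 1.79% of all windows. No motif overlapped another in these windows, and a match is a description of these letters and not a binding site. The windows of Cry1 and Per3 are shown because each holds more than 1 of these motifs within it, and the leading transcripts Cry1-201 and Per3-201 start within them. They come from RefSeq on GRCm38.p6, minus strand, at chr10:85185005-85185304 and chr4:151044616-151044915. Capitals mark the E′-box and E-box of Cry1, in that order, and the D-boxes of Per3. The E′-box reads AACGTG there, since it lies on the other strand.
Cry1: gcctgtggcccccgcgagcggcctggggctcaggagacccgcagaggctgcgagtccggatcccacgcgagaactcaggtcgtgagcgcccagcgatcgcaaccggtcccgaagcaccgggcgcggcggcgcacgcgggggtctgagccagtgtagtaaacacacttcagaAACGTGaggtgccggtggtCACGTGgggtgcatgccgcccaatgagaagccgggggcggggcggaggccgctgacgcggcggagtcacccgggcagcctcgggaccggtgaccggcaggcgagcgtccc
Per3: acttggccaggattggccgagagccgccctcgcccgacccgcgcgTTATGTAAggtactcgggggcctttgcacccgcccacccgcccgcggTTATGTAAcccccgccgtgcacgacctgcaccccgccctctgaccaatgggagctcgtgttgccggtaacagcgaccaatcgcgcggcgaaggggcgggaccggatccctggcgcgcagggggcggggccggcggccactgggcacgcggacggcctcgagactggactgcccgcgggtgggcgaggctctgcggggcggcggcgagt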

How the data were processed

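Total RNA-seq of 2 hippocampus libraries was analysed as 1 group. Per the labels, each used 300 ng of RNA, ERCC spike-ins and a directional kit. Per the accompanying readme and the file headers, the authors deposited expected counts and TPM per gene and transcript, and the percent of gene TPM on each transcript, in RSEM's column layout. Estimated counts and TPM of transcripts were also deposited, in kallisto's layout. Both used mm10 and GENCODE M21, so CAST sequence was not used. The sources used here do not name programs or versions.

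Clock genes were found by symbol in the transcript identifiers, linked by gene identifier to the other tables. Levels are deposited TPM, and kallisto-layout TPM were summed to genes. The 96 ERCC rows, phiX and 26248 numeric rows, 0.454% and 0.481% of counts in replicates 2 and 1, stayed out of library sizes. The largest posterior SD of a clock gene's count was 0.750 and 0.980 counts. Expected counts were rounded and TMM-scaled (edgeR 4.0.16, R 4.3.3). Log2 ratios set replicate 2 over replicate 1, with a prior count of 2. Clopper-Pearson 95% intervals were computed from rounded counts. Reads carry no molecular identifiers, so intervals and floors cover counting error only. Count ratios between layouts were centred over nuclear protein-coding genes of at least 10 TPM. Each side of a ratio is 1 library, so no hypothesis test was run, and a call means past 1.5-fold. No batch is given in the labels.

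Members and lists were chosen with earlier results of these data known. Named are all members, the 4 highest genes of each pathway list, its largest ratio at a mean count of at least 100, and transcripts with at least 10% of a member's TPM or leading it. Transcripts outside that rule (Per1-206, Cry1-202), Ttr, Nms, Six6, Grp, Vip, Prokr2, Npas2, Arntl2 and overlapping genes were named after their values were seen. The computation was tested on simulated counts. Alternatives used DESeq2 1.42.0 size factors, library size and ERCC scaling, other priors, folds and filters, and the other layout. Sums without Per1-204 were added after the data were seen. Python 3.11.15, numpy 2.4.6, pandas 2.3.3, scipy 1.17.1 and matplotlib 3.10.9 were used.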

Additional observations from a re-analysis of the deposited data

How the results depend on the processing

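The median level of the 10 clock genes, 26.07 TPM, was 22.00 TPM in the kallisto layout, 26.30 TPM over mouse genes alone and 58.31 TPM over nuclear protein-coding genes alone. Leaving out either library gave 26.03 to 26.11 TPM. In the kallisto layout 9 of the 10 single levels moved by more than the SD between libraries. The number of clock genes whose counting interval excluded 0 was 2, but 7 with ERCC scaling, where 33.0% of all genes did so, and 0 at 99% confidence, where 16.7% did. The count past the fold between libraries was 0 in the settings run for it, where 1.09% to 23.4% of all genes were past it. The count past the fold between layouts was also 0, against 7.01% of all genes in the main setting and 7.51% by TPM ratio. It was 0 in the other settings and without either library too, for which no share over all genes is given. No leading transcript differed between layouts, where 12.9% to 20.1% of genes differed, and the count was 0 to 0 without either library. Between libraries none differed either, against 9.38% and 16.2% of genes. The median log2 ratio of 0.068 ranged from 0.044 to 0.127. With library size alone the log2 ratio of Clock was -0.022, and in deposited TPM -0.035, against 0.003 with TMM, and it was the only clock gene whose sign turned in the settings run. No paired analysis was possible because the samples form 1 group. Transcript shares rest on few reads for short transcripts, and a short transcript weighs heavily in TPM.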
